A study of Mus musculus with 8 samples.

Results

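The genes described here encode 2 R-spondins (Rspo2, Rspo3), their 3 receptors (Lgr4, Lgr5, Lgr6), 3 low-density-lipoprotein-receptor-related proteins (Lrp4, Lrp5, Lrp6), the Frizzled receptor Fzd7 and the receptor-like kinase Ryk. They were taken as a list of symbols matched to Ensembl identifiers, and all 10 were found among the 43346 genes of the count table. RNA was sequenced from bone fractions enriched for osteocytes, the cells buried in mineralized matrix, to compare flat bones of the skull vault with a long bone. All mice were C57BL/6 animals aged 12 weeks, and the labels name no treatment, transgene or sex. There were 3 femur, 3 frontal and 2 parietal libraries, and the 5 frontal and parietal libraries together are called calvaria. Libraries carry the number in their description (1, 2 or 4). Whether each library stands for its own animal or for a pool is not stated, so the tests see only the spread among these 8 libraries, and part of it may be technical.

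Wnt proteins bind a Frizzled receptor together with Lrp5 or Lrp6, and the complex stabilizes β-catenin, which acts with TCF/LEF factors on target genes. R-spondins are secreted proteins that bind Lgr4, Lgr5 or Lgr6 and the membrane ubiquitin ligases Rnf43 and Znrf3. Those ligases remove Frizzled and Lrp from the cell surface, and R-spondins relieve that removal, so they raise the response to Wnt. Lrp4 binds the Wnt inhibitor sclerostin in bone and agrin at the neuromuscular junction, and Ryk is a catalytically inactive kinase that binds Wnt proteins. In bone, loss of LRP5 lowers bone mass in people and mice, and mutations that stop LRP5 or LRP4 from binding sclerostin raise it.

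Promoters are shown for the 4 of the 10 genes that had one in the RefSeq promoter table (assembly GRCm38.p6), Fzd7, Lgr6, Lgr4 and Ryk. All 4 were lower in calvaria than in femur, as were 7 of the 10 genes. No window of a gene that was not lower is shown, so these bases cannot be tied to the direction of change. Each line gives the 250 bases before the RefSeq start on the gene's strand, 5′ to 3′. Capitals mark matches on either strand to GGGCGG, the core of the GC box, or TATAAA, the core of the TATA box.
Fzd7: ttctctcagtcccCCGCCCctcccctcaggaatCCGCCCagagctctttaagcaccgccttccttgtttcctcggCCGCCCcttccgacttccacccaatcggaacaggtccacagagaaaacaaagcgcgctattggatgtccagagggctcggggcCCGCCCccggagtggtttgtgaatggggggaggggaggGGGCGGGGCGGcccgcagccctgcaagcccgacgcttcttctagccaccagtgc
Lgr6: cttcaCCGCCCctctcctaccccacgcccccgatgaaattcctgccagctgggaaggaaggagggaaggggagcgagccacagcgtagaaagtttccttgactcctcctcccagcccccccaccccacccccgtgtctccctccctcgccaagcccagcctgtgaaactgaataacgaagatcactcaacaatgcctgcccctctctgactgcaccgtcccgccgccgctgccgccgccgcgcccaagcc
Lgr4: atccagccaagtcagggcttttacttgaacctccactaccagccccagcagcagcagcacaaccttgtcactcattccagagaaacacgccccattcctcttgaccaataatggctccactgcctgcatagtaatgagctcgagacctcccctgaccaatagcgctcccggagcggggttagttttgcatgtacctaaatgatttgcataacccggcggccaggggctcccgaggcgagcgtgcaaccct
Ryk: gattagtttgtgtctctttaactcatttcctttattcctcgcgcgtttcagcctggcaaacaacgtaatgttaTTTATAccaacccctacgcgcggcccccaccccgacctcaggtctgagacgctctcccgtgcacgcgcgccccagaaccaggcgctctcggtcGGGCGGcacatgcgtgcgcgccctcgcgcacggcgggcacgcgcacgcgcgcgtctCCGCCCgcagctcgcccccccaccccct
These windows lie at chr1:59481897-59482146 on the plus strand for Fzd7, chr1:135105277-135105526 on the minus strand for Lgr6, chr2:109917397-109917646 on the plus strand for Lgr4 and chr9:102834670-102834919 on the plus strand for Ryk. GGGCGG matched 6 times in the Fzd7 window, where 2 matches overlap each other, 1 time for Lgr6 and 2 times for Ryk, and did not match for Lgr4. TATAAA matched 1 time, in the Ryk window. Of 32841 windows of this length in the table, 32.7% held GGGCGG and 12.4% held TATAAA. The letters CTTTGA (core of TCF/LEF sites) and TGTGGT (core of RUNX sites) were also sought on both strands and matched in none of the 4 windows. They matched in 13.8% and 14% of all windows, and 4 windows are too few to differ from such shares. G and C made up 65.2% of the Fzd7, Lgr6 and Ryk windows and 55.6% of the Lgr4 window, where the median of all windows was 52.4%. CG dinucleotides numbered 17 for Fzd7, 16 for Lgr6, 10 for Lgr4 and 33 for Ryk, with a median of 6 over all windows. Matches describe these letters only.

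By GENCODE M21 (build GRCm38) all 10 genes are protein coding. Rspo2 lies at chr15:43020794-43170826 on the minus strand and Rspo3 at chr10:29452416-29535867 on the minus strand. Lgr4 (chr2:109917647-110014257, plus), Lgr5 (chr10:115450311-115587780, minus) and Lgr6 (chr1:134983301-135105276, minus) lie on 3 chromosomes. Lrp4 is at chr2:91457511-91513779 on the plus strand, Lrp5 at chr19:3584828-3686564 on the minus strand and Lrp6 at chr6:134446476-134566965 on the minus strand. Fzd7 spans chr1:59482424-59486955 and Ryk chr9:102834917-102908305, both on the plus strand. Counts were per gene, so no value can be assigned to an exon or UTR. The strand setting of the counting is not given in the sources used here. An antisense model, Gm48159, shares 404 exon bases with Rspo3, and reads of the 2 cannot be told apart if strand was not used. Gm48159 was not among the genes of the count table, so it has no value of its own.

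Libraries held 6259229 to 13461622 gene counts, and markers of bone cells and of other cell types differed between femur and calvaria. No library had 0 counts for any of 9 osteocyte, 9 osteoblast, 8 erythroid or 8 granulocyte markers. Osteocyte markers such as Dmp1 and Sost together took 2.33 to 4.60% of counts in femur and 0.0764 to 0.143% in calvaria, and 8 of the 9 were lower in calvaria by the test used below. Osteoblast markers took 3.98 to 5.37% and 0.358 to 2.08% (7 of 9 lower). Hemoglobin and other erythroid genes took 1.18 to 2.88% and 6.91 to 11% (8 of 8 higher), and granulocyte genes 1.59 to 4.15% and 6.09 to 8.30% (5 of 8 higher). Endothelial markers took 0.0487 to 0.0575% and 0.0220 to 0.0283% (7 of 7 lower). Chondrocyte markers took 0.0256 to 0.0751% and 0.00131 to 0.00279% (3 of 3 tested lower), with Acan at 0 in frontal libraries 1 and 4 and Matn3 at 0 in frontal libraries 2 and 4. Of the other lists, 3 of 5 osteoclast markers were higher, 1 of 7 tested periosteum and tendon markers was higher and 3 lower, and 1 of 2 tested muscle markers was higher. The higher periosteum and tendon marker was Ctsk, which is also among the osteoclast markers. The part of these markers in the differences below was not tested. In such bulk fractions, fewer cells of a type and less RNA per cell cannot be told apart.

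**Figure D1:**
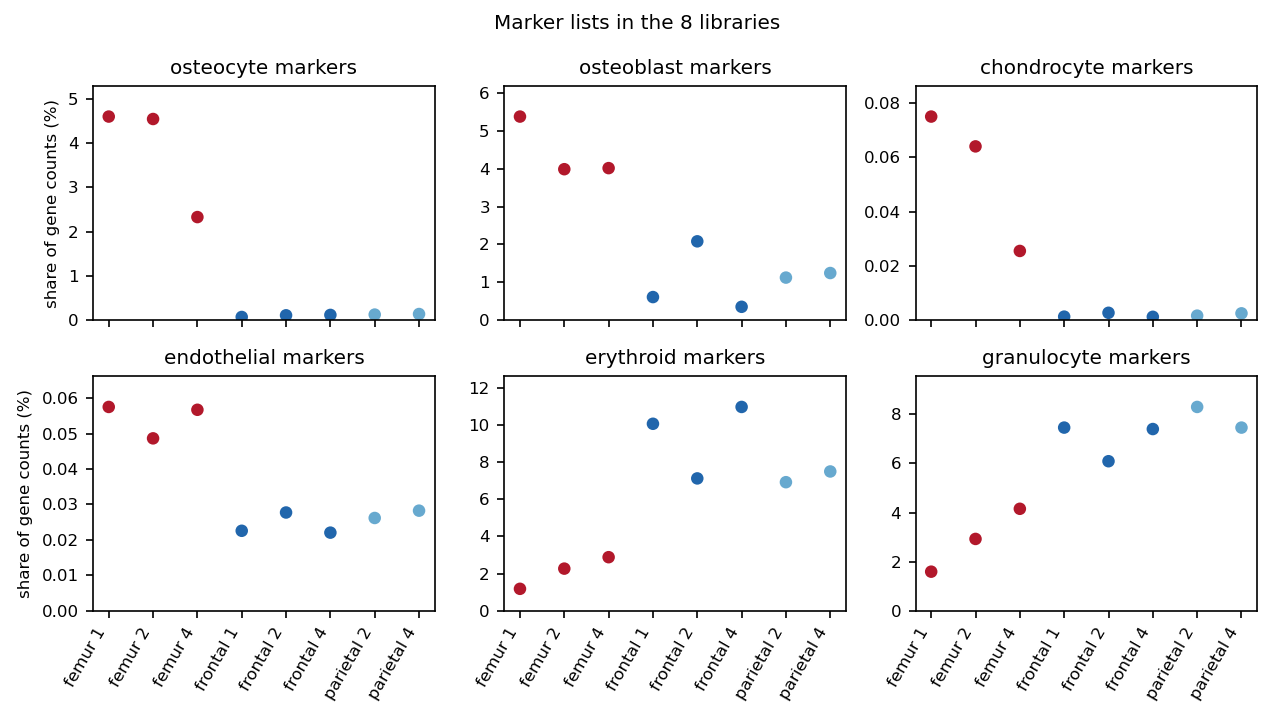
Share of gene counts (%, linear axes) taken by 6 marker lists in each of the 8 libraries, 1 point a library, femur in red, frontal in dark blue and parietal in light blue. Osteocyte markers sit at 2.33 to 4.60% in femur and at no more than 0.143% in the 5 calvarial libraries, while erythroid markers sit at 6.91 to 11% in calvaria and at no more than 2.88% in femur.

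Between calvaria and femur, 9 of the 10 genes changed. Rspo2 and Lgr5 were higher in calvaria, Lgr4, Lgr6, Lrp4, Lrp5, Lrp6, Fzd7 and Ryk were lower, and Rspo3 did not pass the test. The threshold was an adjusted p of 0.05 in edgeR's quasi-likelihood test, with Benjamini-Hochberg adjustment over all 15511 genes tested. Of all genes tested, 61.0% were called in this comparison (29.6% higher, 31.4% lower), so a call as such was common. The median log2 fold change was -1.48 over the 10 genes and 0.012 over all genes tested. In the same 9 genes the 5 calvarial values lay wholly on 1 side of the 3 femur values, as in 53.5% of all genes (26.0% with calvaria higher, 27.5% lower). The 10 genes took 0.0434 to 0.0586% of a femur library's counts and 0.00674 to 0.0113% of a calvarial library's.

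**Figure D2:**
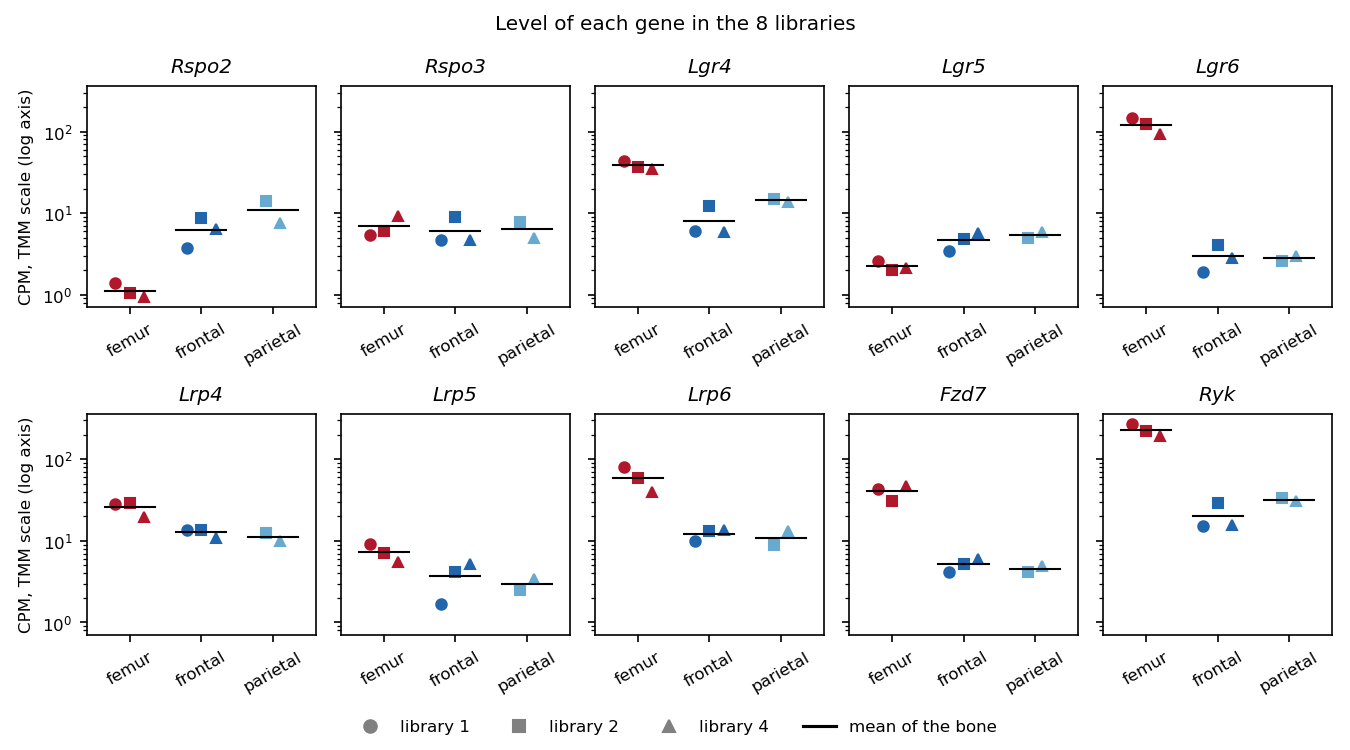
Level in CPM (TMM scale, log axis) of each gene in each library, grouped by bone; the symbol gives the library number and the bar the mean of the bone. Femur points lie above all others for 7 genes and below all others for Rspo2 and Lgr5, and the 3 bones overlap for Rspo3.

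Rspo2, a ligand of the Lgr receptors, was the gene with the larger rise. It measured 1.38, 1.04 and 0.933 CPM (read counts relative to the library total, scaled by TMM) in femur libraries 1, 2 and 4, 3.71, 8.6 and 6.46 CPM in frontal libraries 1, 2 and 4, and 14.2 and 7.57 CPM in parietal libraries 2 and 4. Every calvarial library lay above every femur library, and the calvarial values were spread widely. The means were 1.12 ± 0.231 (SD, n = 3) in femur and 8.11 ± 3.87 CPM (n = 5) in calvaria, a 7.53-fold difference with a log2 fold change of 2.91 ± 0.39 (SE; edgeR adjusted p = 5.3e-05). The femur values rest on 8, 11 and 8 reads, and the gene passed the filter on low counts through calvaria only, so only a rise could have been seen. It was also called without that filter.

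Rspo3, the other R-spondin measured, measured 5.33, 6.04 and 9.22 CPM in femur, 4.66, 8.99 and 4.63 in frontal bone, and 7.87 and 4.95 in parietal bone. The 3 bones overlapped throughout. The log2 fold change of calvaria against femur was -0.13 ± 0.30 (edgeR adjusted p = 0.727), with a 95% interval from -0.78 to 0.52, and its sign turned with upper-quartile scaling (0.038). That interval excludes a change of the size of Rspo2's.

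Within a library, the balance of the 2 ligands can be read without scaling between libraries. The log2 ratio of Rspo2 to Rspo3 counts was -1.89, -2.49 and -3.23 in femur, -0.33, -0.062 and 0.47 in frontal bone, and 0.85 and 0.61 in parietal bone. No calvarial value reached down to the femur values. The mean rose from -2.53 ± 0.67 to 0.31 ± 0.49 (SD), a difference of 2.84 (exact two-sided permutation test over 56 splits, p = 0.0179, the smallest it can give; 0.0214 adjusted over 6 ratios). Per length, as CPM per kilobase of exon (RPKM), Rspo2 made up 9.56 ± 3.87% of the level of the 2 genes in femur and 43.0 ± 8.20% in calvaria. With the longest transcript as the length in place of all exons, the shares were 13.8 ± 5.35% and 53.3 ± 8.40%, so which ligand leads in calvaria depends on the length used. Their summed level overlapped between the bones, at 1.99 to 3.17 RPKM in femur and 2.23 to 5.33 in calvaria. Markers of marrow stroma and adipocytes (Cxcl12, Lepr, Kitl, Adipoq, Plin1), of which 2 of 4 tested were higher and 1 lower in calvaria, took 0.0765 to 0.0916% of counts in femur and 0.149 to 0.204% in calvaria; Plin1 was at 0 in 4 libraries. Their part in the Rspo2 value was not tested.

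Of the R-spondin receptors, Lgr6 fell the most of the 10 genes. Lgr6 measured 144.6, 122.1 and 93.6 CPM in femur, 1.91, 4.11 and 2.81 in frontal bone, and 2.6 and 3.01 in parietal bone. The lowest femur library was more than an order of magnitude above the highest calvarial one. The means of 120.1 ± 25.6 and 2.89 ± 0.799 CPM differed 41.3-fold (log2 fold change -5.37 ± 0.22, edgeR adjusted p = 1.7e-08). Calvarial libraries still held 16 to 43 reads of it each.

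Lgr4, the receptor of this family with the broadest tissue range, measured 43.5, 36.7 and 34.9 CPM in femur, 6.10, 12.1 and 5.90 in frontal bone, and 15.0 and 13.6 in parietal bone. Femur stood above calvaria, and parietal bone with frontal library 2 stood above the other frontal libraries. It was 3.54-fold lower in calvaria (log2 fold change -1.82 ± 0.22, edgeR adjusted p = 2.2e-05).

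Lgr5, known as a marker of stem cells in the intestine and hair follicle, went the other way at a low level. It measured 2.58, 1.98 and 2.10 CPM in femur, 3.47, 4.78 and 5.76 in frontal bone, and 4.89 and 5.92 in parietal bone. All calvarial libraries exceeded all femur libraries, with 15 to 21 reads in each femur library and 29 to 64 in each calvarial one. The mean rose from 2.22 ± 0.316 to 4.96 ± 0.977 CPM, 2.28-fold (log2 fold change 1.19 ± 0.27, edgeR adjusted p = 0.00247). Lgr5 lies over A930009A15Rik on the other strand, with which it shares no exon bases.

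The make-up of the receptor family therefore differed between the bones. Per length, Lgr6 was 72.0 ± 2.56% of the summed RPKM of the 3 Lgr genes in femur and 16.2 ± 4.02% in calvaria. Lgr4 was 27.1 ± 2.44% in femur and 64.7 ± 9.0% in calvaria, though its own level fell. Lgr5 was 0.901 ± 0.121% in femur and 19.0 ± 5.82% in calvaria. The sum of the 3 was 19.8 to 28.7 RPKM in femur and 1.65 to 3.40 RPKM in calvaria. As log2 ratios within a library, Lgr6 to Lgr4 was 1.63 ± 0.18 in femur and -1.78 ± 0.56 in calvaria, a difference of -3.41 (exact two-sided permutation test, p = 0.0179, adjusted 0.0214). Lgr5 to Lgr4 was -4.08 ± 0.090 and -0.99 ± 0.61, a difference of 3.08 with the same p-values. With the longest transcript as the length, the Lgr5 share was 1.80% in femur and 30.4% in calvaria, so the shares depend on the length used. The order of the 3 mean shares was the same with both lengths. With all exons as the length, Lgr5 and Lgr6 shares overlapped in calvaria. Lgr6 (19.2%) stood above Lgr5 (14.9%) in frontal library 2 and below it in the other calvarial libraries.

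**Figure D3:**
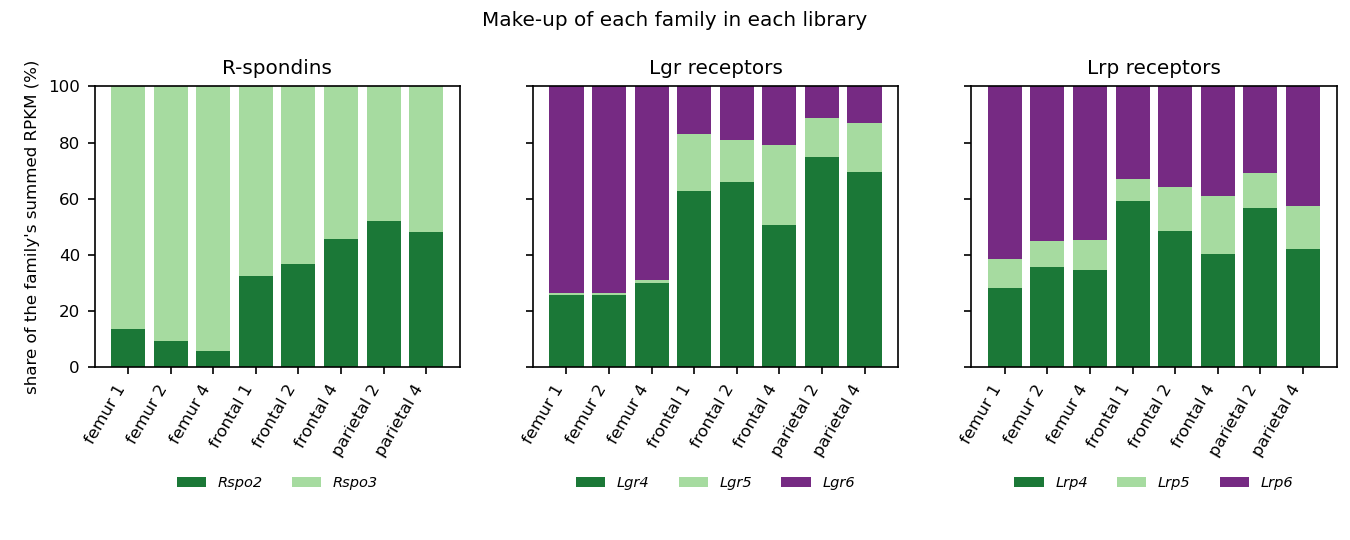
Share (%) of each family's summed RPKM taken by each of its genes, 1 stacked bar a library, for the R-spondins, the Lgr receptors and the Lrp receptors. Lgr6 fills 69.0 to 73.5% of the Lgr bar in each femur library and at most 20.8% in a calvarial one.

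Among the Lrp genes, the Wnt co-receptor Lrp6 differed most. Lrp6 measured 79.8, 59.0 and 40.3 CPM in femur, 9.92, 13.1 and 13.6 in frontal bone, and 8.79 and 13.2 in parietal bone. Femur libraries were spread widely and all lay above calvaria. It was 5.14-fold lower in calvaria (log2 fold change -2.36 ± 0.22, edgeR adjusted p = 3.9e-06).

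Lrp4, the sclerostin-binding member, measured 28.2, 29.4 and 19.6 CPM in femur, 13.6, 13.6 and 10.8 in frontal bone, and 12.4 and 10.1 in parietal bone. The groups did not overlap. Its log2 fold change was -1.10 ± 0.18 (edgeR adjusted p = 0.000226), a 2.15-fold lower level. Lrp5, the co-receptor tied to bone mass, measured 9.28, 7.18 and 5.48 CPM in femur, 1.67, 4.11 and 5.20 in frontal bone, and 2.52 and 3.40 in parietal bone. Frontal library 4 came close to femur library 4, and no value crossed over. The log2 fold change was -1.14 ± 0.32 (edgeR adjusted p = 0.00933). Neither call held when a trend of the fold change with exon length and GC content was removed (Lrp4 -0.15, adjusted p = 0.460; Lrp5 -0.22, adjusted p = 0.591; edgeR), and 7 of the 10 genes were then called. For Lrp5 the single comparison of frontal bone with femur (-0.99 ± 0.37, edgeR adjusted p = 0.0387) was lost under 8 of 16 alternatives in all.

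Since Lrp4 and Lrp5 differed less than Lrp6, the balance within the family moved. The log2 ratio of Lrp4 to Lrp6 was -1.18 ± 0.28 in femur and 0.057 ± 0.42 in calvaria, a difference of 1.24, and that of Lrp5 to Lrp6 was -3.0 ± 0.12 and -1.86 ± 0.43, a difference of 1.14 (exact two-sided permutation tests, both p = 0.0179, adjusted 0.0214). Leaving out 1 library, the Lrp4 to Lrp6 call held in 5 of 8 runs and the Lrp5 to Lrp6 call in 1 of 8. Per length, Lrp6 led the family in femur with 57.1 ± 3.87% of its summed RPKM and Lrp4 led in calvaria with 49.3 ± 8.42%. Lrp5 was 9.98 ± 0.551% in femur and 14.5 ± 4.78% in calvaria. Lrp4 and Lrp6 were near equal in 2 calvarial libraries, at 40.2 and 38.9% in frontal library 4 and at 42.2 and 42.4% in parietal library 4.

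Fzd7 and Ryk, which both bind Wnt proteins, were lower in calvaria by similar factors. Fzd7 measured 43.5, 30.6 and 47.3 CPM in femur, 4.18, 5.26 and 6.04 in frontal bone, and 4.2 and 4.95 in parietal bone. Its calvarial libraries lay close together and far below femur (8.31-fold, log2 fold change -3.06 ± 0.19, edgeR adjusted p = 2.0e-07). Ryk measured 272.2, 219.2 and 191.6 CPM in femur, 15.2, 29.4 and 15.7 in frontal bone, and 33.1 and 30.7 in parietal bone. It was 8.94-fold lower in calvaria (log2 fold change -3.16 ± 0.21, edgeR adjusted p = 2.7e-07). The log2 ratio of Fzd7 to Ryk was -2.50 ± 0.43 in femur and -2.26 ± 0.64 in calvaria, and its difference of 0.25 did not pass (exact two-sided permutation test, p = 0.554).

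Compared per length, Ryk had the highest level of the 10 genes in each bone, at 50.2 RPKM in femur, 4.44 in frontal bone and 7.03 in parietal bone. In femur it was followed by Lgr6 (17.5), Fzd7 (8.92), Lgr4 (6.52), Lrp6 (4.36), Lrp4 (2.45), Rspo3 (2.22), Lrp5 (0.751), Rspo2 (0.218) and Lgr5 (0.216 RPKM). The libraries of 3 neighbours in that order overlapped: Fzd7 with Lgr4, Lrp4 with Rspo3, and Rspo2 with Lgr5. In frontal bone the order after Ryk was Rspo3 (1.97), Lgr4 (1.37), Rspo2 (1.22), Lrp4 (1.21), Fzd7 (1.14), Lrp6 (0.893), Lgr5 (0.455), Lgr6 (0.430) and Lrp5 (0.376 RPKM). From Rspo3 to Lrp6, and again from Lgr5 to Lrp5, neighbours overlapped there. In parietal bone it was Lgr4 (2.43), Rspo2 (2.13), Rspo3 (2.07), Lrp4 (1.07), Fzd7 (1.01), Lrp6 (0.804), Lgr5 (0.527), Lgr6 (0.409) and Lrp5 (0.304 RPKM). Libraries overlapped there between Lgr4 and Rspo2, Rspo2 and Rspo3, Lrp4 and Fzd7, and Fzd7 and Lrp6. Lgr6 thus stood next to the top in femur and next to the bottom in both skull bones, also with the longest transcript as the length. Other ranks moved with that length. Lgr5 (0.463) then stood above Rspo2 (0.334) in femur. In frontal bone Lgr4 (1.59) stood below Rspo2 (1.87) and Lrp4 (1.60), and Fzd7 (1.14) below Lrp6 (1.30). In parietal bone Lgr4 (2.82) stood below Rspo2 (3.26), and Fzd7 (1.01) below Lrp6 (1.17) and Lgr5 (1.13).

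Each skull bone taken alone gave the same 9 calls in the same directions, with 2 genes higher and 7 lower. For frontal bone 55.7% of all genes were called (27.2% higher, 28.5% lower), and for parietal bone 55.7% (27.1% higher, 28.6% lower). The groups did not overlap for the same 9 genes, as in 63.0% of all genes for frontal bone (31.4% higher, 31.6% lower) and 72.0% for parietal bone (36.1% higher, 35.9% lower). Both comparisons share the femur libraries. The log2 fold changes against femur were 2.51 and 3.31 for Rspo2, -2.23 and -1.42 for Lgr4, 1.08 and 1.29 for Lgr5, and -5.31 and -5.42 for Lgr6, frontal bone first. They were -1.02 and -1.19 for Lrp4, -0.99 and -1.30 for Lrp5, -2.28 and -2.44 for Lrp6, -2.97 and -3.14 for Fzd7, and -3.49 and -2.83 for Ryk. The median of the 10 was -1.62 for frontal and -1.36 for parietal bone, against 0.024 and 0.0057 over all genes. After removal of the length and GC trend, 7 of the 10 genes were called in each bone. Lrp4 then stood at -0.25 in frontal bone (edgeR adjusted p = 0.285) and -0.056 in parietal bone (adjusted p = 0.844). Lrp5 stood at -0.24 (edgeR adjusted p = 0.606) and -0.20 (adjusted p = 0.718). The parietal call of Lrp5 (edgeR adjusted p = 0.0201) was also lost without parietal library 2 (adjusted p = 0.130).

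**Figure D4:**
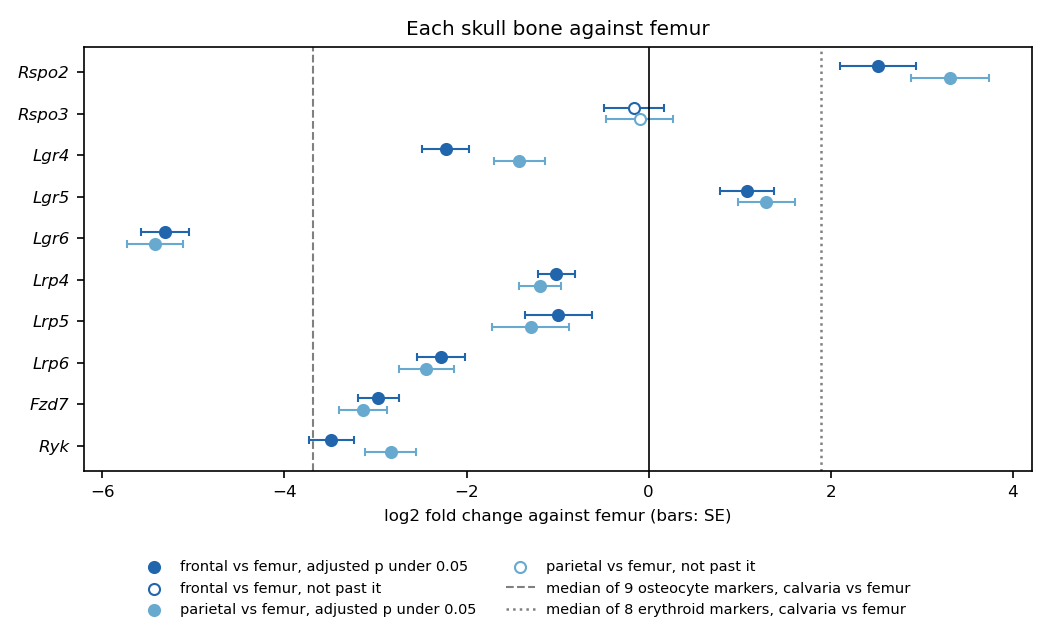
Log2 fold change of frontal (dark) and parietal (light) bone against femur for each gene, with SE bars; filled points have an adjusted p under 0.05 in edgeR's test. The dashed and dotted lines mark the median of 9 osteocyte markers (-3.69) and of 8 erythroid markers (1.89) in calvaria against femur, and Lgr6 is the gene left of the dashed line in both bones.

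Frontal and parietal bone were then compared with each other, which also tests whether their differences from femur are unequal. None of the 10 genes was called by edgeR's test, where 7.21% of all genes were (3.91% higher, 3.29% lower in frontal bone), and 3 had an unadjusted p under 0.05. DESeq2 called 1 of the 10 (Lgr4) and limma-voom 0. Lgr4 was lower in frontal bone by -0.81 ± 0.28 on the log2 scale (95% interval -1.43 to -0.19, edgeR adjusted p = 0.0915), Ryk by -0.65 ± 0.26 (-1.22 to -0.082, adjusted p = 0.129) and Rspo2 by -0.80 ± 0.36 (-1.58 to -0.013, adjusted p = 0.168). All 3 frontal values lay below both parietal values for Lgr4 and Ryk, as they did in 25.6% of genes. All lay above in 21.9%, which makes 47.5% without overlap. Frontal library 2 stood nearer to parietal bone for both. Without it, edgeR's test called both, Lgr4 at -1.25 (adjusted p = 0.00759) and Ryk at -1.04 (adjusted p = 0.00867). In that run 1963 of 15266 genes were called, against 1118 of 15511 with all libraries. Leaving out the frontal library nearest to parietal bone widens the difference by itself, so these 2 calls are no separate support for it. The other 7 genes had log2 fold changes from -0.21 to 0.31, and the widest of their intervals, that of Lrp5, ran from -0.63 to 1.24.

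The summed shares of several marker lists moved with this pattern, though not each gene in them. Osteoblast markers took 0.614, 2.08 and 0.358% of counts in frontal libraries 1, 2 and 4, and 1.13 and 1.25% in the parietal libraries. Col1a1 (127727 counts in frontal, 96110 in parietal bone) and Col1a2 (96129 and 93090) dominate that sum. Of the 9 osteoblast markers 3 were called lower in frontal bone, 0 higher and 6 were not called. Runx2 was higher in all frontal libraries (38.5, 28.4 and 30.8 CPM) than in the parietal ones (25.5 and 24.3). Marrow stroma and adipocyte markers took 0.149, 0.199 and 0.152% in frontal bone and 0.204 and 0.198% in parietal bone. Erythroid markers were ordered the other way, at 10.1, 7.12 and 11% in frontal bone and 6.91 and 7.49% in parietal bone. Endothelial markers took 0.0226, 0.0277 and 0.0220% in frontal bone and 0.0262 and 0.0283% in parietal bone, and chondrocyte markers 0.00137, 0.00279 and 0.00131% against 0.00174 and 0.00259%. In these 5 lists frontal library 2 stood among the parietal libraries, near them or beyond them, away from the other frontal ones, as for Lgr4 and Ryk. Osteoclast markers (0.200, 0.308 and 0.245%, then 0.344 and 0.377%) and periosteum and tendon markers (0.0876, 0.152 and 0.123%, then 0.206 and 0.223%) were lower in all frontal libraries, with frontal library 2 the nearest to parietal bone. These 2 lists are not independent, since Ctsk is in both. With 87760 counts over all libraries it dominates the periosteum and tendon list, where Postn came next with 15335. Granulocyte markers did not follow the pattern (7.46, 6.09 and 7.40%, then 8.30 and 7.46%). The summed share of osteocyte markers (0.0764, 0.114 and 0.123%, then 0.130 and 0.143%) was lower in all frontal libraries, but frontal library 4 was the nearest to parietal bone. Of the 9 osteocyte markers 1 was called higher in frontal bone, 1 lower and 7 were not called. Fgf23 was higher in all frontal libraries (15.3, 7.17 and 4.91 CPM, then 1.68 and 3.01). Muscle markers did not follow the pattern either (0.00156, 0.00134 and 0.00241%, then 0.00153 and 0.00139%). The part of these lists in the Lgr4 and Ryk values was not tested.

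Set against the bone cell markers, the genes fell on both sides. The median log2 fold change of calvaria against femur was -3.69 over the 9 osteocyte markers and -1.06 over the 9 osteoblast markers. Both lists were spread widely. Osteocyte markers ran from -6.04 (Dmp1) to -0.63 (Fgf23), and osteoblast markers from -2.97 (Sp7) to 0.089 (Ifitm5). Dmp1 and Pdpn (-5.75) fell further than Lgr6 (-5.37). Lgr6 lay 1.68 below the osteocyte median, and the other 9 genes lay above it, by 0.53 for Ryk, 0.64 for Fzd7, 1.33 for Lrp6 and 1.87 for Lgr4 up to 6.60 for Rspo2. Against the osteoblast median, Lrp4 (-0.042) and Lrp5 (-0.084) lay beside it. Lgr6 (-4.31), Ryk (-2.10), Fzd7 (-1.99), Lrp6 (-1.30) and Lgr4 (-0.76) lay below, and Rspo3 (0.93), Lgr5 (2.25) and Rspo2 (3.97) above. These distances are descriptions, with no test.

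The rest of the pathway was counted from 7 lists of 49 other genes, of which 41 were tested. In calvaria against femur 34 were lower, 2 higher and 5 not called, where 31.4% of all genes tested were lower and 29.6% higher, with a median log2 fold change of -1.67. With the length and GC trend removed, 24 were lower and 3 higher. No other R-spondin could be tested: Rspo1 had 28 counts over all libraries and Rspo4 had 0, which allows up to 0.0403 CPM over the pooled libraries by counting error alone. All 8 tested other Frizzled receptors were lower (median -1.85), led by Fzd3 (-3.92 ± 0.27) and Fzd1 (-2.82 ± 0.22). Of the ubiquitin ligases that R-spondins bind, Znrf3 was lower (-2.39 ± 0.22, edgeR adjusted p = 3.0e-06), while Rnf43 had a log2 fold change of 0.81 ± 0.50 (adjusted p = 0.183), which passed once the trend with length and GC was removed (1.69, adjusted p = 0.0103). Rnf43 was at 3.71 CPM in frontal library 1 and 0.688 to 1.84 CPM in all others.

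Of the other Wnt receptor kinases, Ptk7 was lower (-2.60 ± 0.30) and 2 did not pass, among them Ror2 (-0.61 ± 0.54, edgeR adjusted p = 0.350; 0.31 with that trend removed). The genes for chaperones and ligands of Lrp proteins were lower in 5 of 6 cases, with sclerostin (Sost) at -3.69 ± 0.21 and the Dkk receptor Kremen1 at -2.69 ± 0.20. The exception was Mesd, the chaperone that folds Lrp5 and Lrp6, which was higher (0.44 ± 0.13, edgeR adjusted p = 0.00965) and was singled out after its value was seen. Among its clients, Lrp6 was lower under each alternative run, whereas the Lrp5 call was lost after removal of the length and GC trend, as given above. Of 15 intracellular transducers 14 were lower (median -1.12), with the scaffold genes Dvl2 at -2.02 ± 0.15 and Axin1 at -1.64 ± 0.14. Of 7 tested target and feedback genes 5 were lower, among them Tcf7 (-2.06 ± 0.16) and Apcdd1 (-2.05 ± 0.35), and Axin2, with 41 counts in all, was too low to test. Lef1, which encodes a transcription factor that acts with β-catenin, was higher (0.87 ± 0.20, edgeR adjusted p = 0.00271), and Ccnd1 stood at -0.021 ± 0.21; both were singled out after their values were seen. Lef1 measured 6.36, 7.18 and 10.03 CPM in femur, 20.6, 15.0 and 19.0 in frontal bone, and 11.3 and 11.6 in parietal bone.

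In frontal bone alone 29 of the 41 were lower and 2 higher, against 28.5% and 27.2% of all genes. In parietal bone 30 were lower and 1 higher, against 28.6% and 27.1%. Frontal against parietal bone, 2 of the 41 were called, a share no higher than the 7.21% of all genes, both higher in frontal bone, Dvl3 (1.11 ± 0.30, edgeR adjusted p = 0.0463) and Tcf7l2 (0.85 ± 0.21, adjusted p = 0.0401). They are named because they were the 2 calls among the 41. Both calls were lost with the replicate block (edgeR adjusted p = 0.118 and 0.108) and after removal of the length and GC trend. Leaving out 1 library, each call held in only 3 of 8 runs. The runs that lost both included those without femur 2, frontal 1, parietal 2 or parietal 4.

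**Figure D5:**
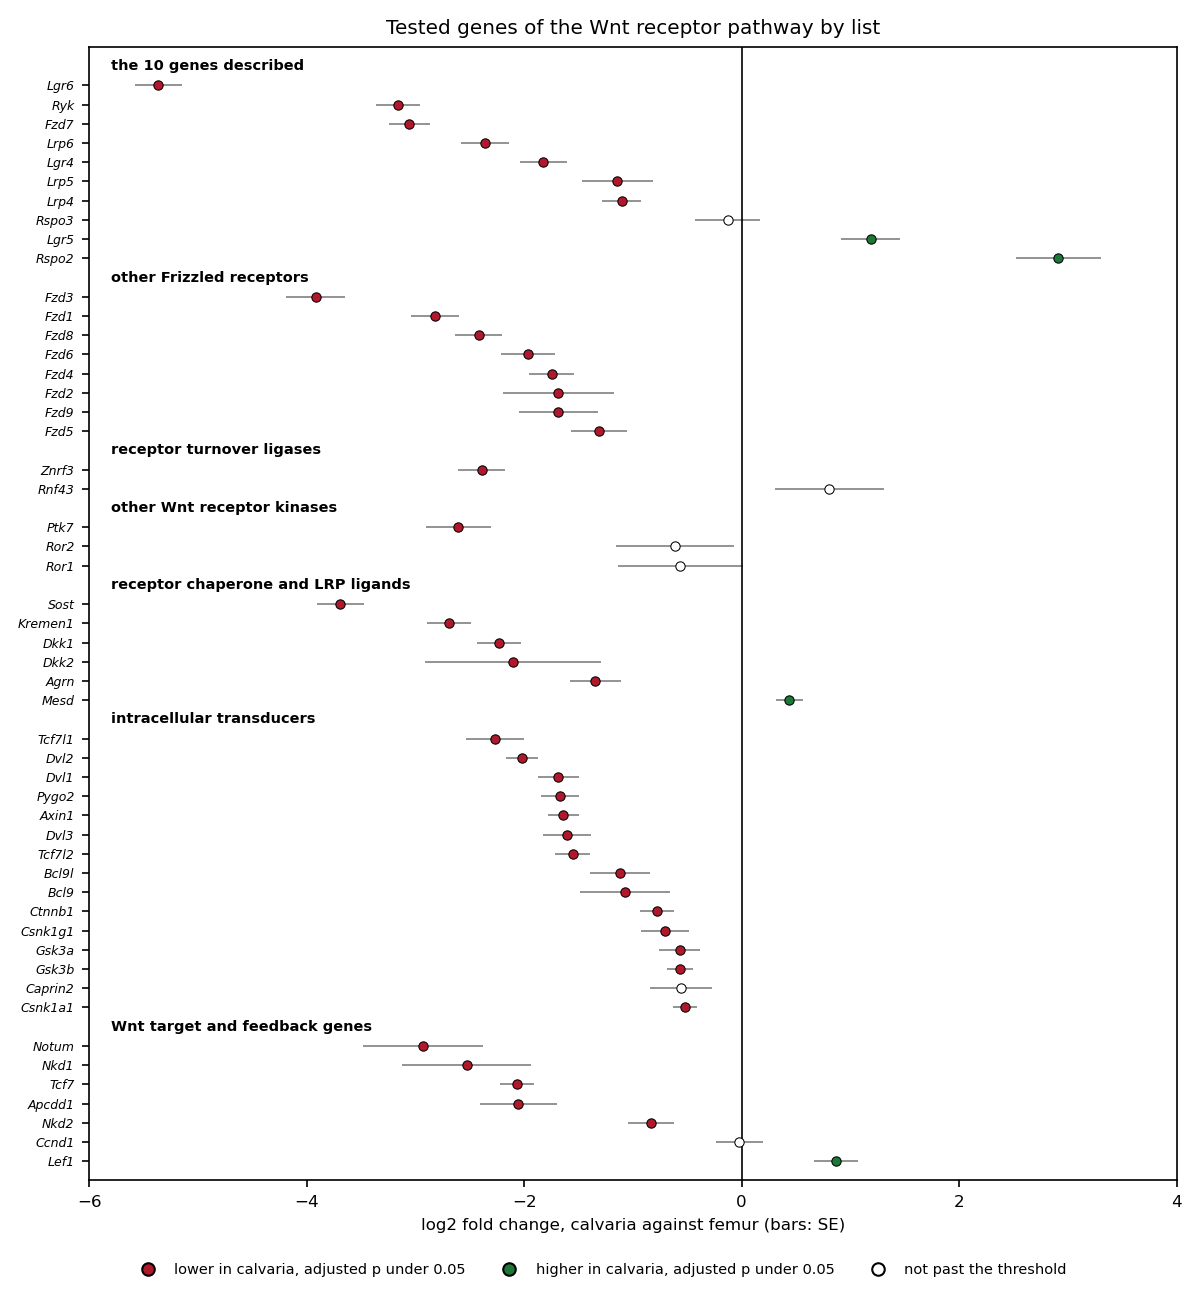
Log2 fold change of calvaria against femur, with SE bars, for the 10 genes and the 41 other pathway genes tested, grouped by list; red points are lower and green points higher in calvaria at an adjusted p under 0.05 in edgeR's test, and white points did not pass. All 8 other Frizzled receptors are red, and the green points are Rspo2, Lgr5, Mesd and Lef1.

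For each gene, the gene with the most similar profile over the 8 libraries was found by Pearson correlation of log2 CPM. Because femur and calvaria form separate clusters, a high value follows from that contrast alone, and correlations with the bone means removed are given second, all as descriptions. Each partner was picked as the highest among all tested genes with a symbol. The second value comes from the same pair and libraries, so that choice raises it too. Lgr6 was most like Jup, which encodes plakoglobin (0.9998, 0.988), and 8.70% of all genes tested exceeded a correlation of 0.95 with it. Ryk was most like Ptgs2, the gene of cyclooxygenase-2 (0.999, 0.976), Lrp6 most like Srgap1 (0.997, 0.983), Fzd7 most like Tg (0.997, 0.884) and Lgr4 most like Ythdf3 (0.998, 0.985). Rspo2 was nearest to Top1mt (0.991, 0.951), Lgr5 to Gtf2f2 (0.989, 0.986), Lrp4 to Rin1 (0.989, 0.942) and Lrp5 to Zmat3 (0.982, 0.962). The share of genes above 0.95 was 7.21% for Ryk, 6.49% for Fzd7, 6.03% for Lrp6 and 3.29% for Lgr4. It was 2.43% for Lrp4, 1.83% for Rspo2, 0.729% for Lgr5 and 0.0451% for Lrp5. For Rspo3, whose level did not separate the bones, no gene exceeded 0.95, and Itga8 came nearest (0.946, 0.945).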

How the data were processed

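The authors deposited raw counts per gene as whole numbers, and these were used. The deposited filtered and scaled tables were not. The submitters' processing notes name STAR 2.5.2a, DESeq2, edgeR, limma, GRCm38.p3 and mm10. How strand was set, which program counted and on which annotation is not given in the sources used here. Reads were 37-base pairs from Nextera XT libraries, per the labels' protocols. Spike-ins (92 of 43438 rows) entered neither library sizes nor tests. Genes without a symbol (884) held 0.114 to 0.151% of counts and stayed in. Counts were tested in edgeR 4.0.16 (R 4.3.3): filterByExpr, TMM, and a robust quasi-likelihood fit with 3 bone groups in 8 libraries (5 residual degrees of freedom, biological coefficient of variation 18.6%), so that all bones share 1 estimate of spread. Standard errors were the log2 fold change over the root of F. Ratios used counts plus 0.5. RPKM used the length of all exons of a gene in GENCODE M21. Every pair within a bone differed by more than sampling noise. Alternatives covered scaling, filter, DESeq2 1.42.0, limma-voom 3.58.1, a replicate block, length and GC, and leaving out each library. The 10 genes, the lists and the marker lists were chosen with earlier results of these data known. All 10 genes are named, with the 2 tested genes of smallest p of each other list. Other tested pathway genes that are named were chosen after their values were seen. Of the pathway genes too low to test, Rspo1, Rspo4 and Axin2 are named outside that rule, and the rest are not named. Single marker genes were also named with their values seen. The steps were also run on simulated data with far fewer changed genes than were called here. Those runs therefore do not cover a shift as broad as that between these bones.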

Additional observations from a re-analysis of the deposited data

How the results depend on the processing

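Over 16 alternatives, 601 of 640 values of the 10 genes kept their direction and their side of the threshold, 14 lost and 5 gained a call, and 20 changed sign, none of them a called value. Sign changes concerned Rspo3 and frontal against parietal bone. Rspo3 in calvaria was 0.038 and in parietal bone 0.079 with upper-quartile scaling. Frontal against parietal, Rspo3 was 0.032 with library size only, 0.089 with the replicate block and 0.16 once the length and GC trend was removed, and Lgr6 was then -0.19, Lrp4 -0.19, Lrp5 -0.045 and Fzd7 -0.11. Of other pathway genes, Ror2 was 0.31 and Ccnd1 0.23 in calvaria with that trend removed, and Ccnd1 was 0.073 with library size only, 0.15 with upper-quartile scaling, 0.0049 without the filter and -0.13 to 0.089 leaving out 1 library. Leaving out 1 library, Rspo3 ran from -0.33 to 0.14 (calvaria), -0.57 to 0.11 (frontal), -0.51 to 0.16 (parietal) and -0.47 to 0.35 (frontal against parietal), where Lgr6 ran from -0.25 to 0.34 and Lrp6 from -0.078 to 0.52. Lrp5 in frontal bone against femur was lost with library size only, upper-quartile scaling, the block, removal of the length and GC trend, and without femur 1 or 2 or frontal 1 or 2.

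Frontal against parietal, 1118 genes were called (54.3% higher in frontal), 1904 without the filter (61.1% higher), 2225 with DESeq2, 105 after removing the length and GC trend (65.7% higher), 0 with the replicate block and 0 to 1963 leaving out 1 library, with 0 without femur 2, frontal 1, parietal 2 or parietal 4. With library size only, 75.6% of calls were higher. Of the 10 genes, 2 were called without the filter, 1 with DESeq2 and 0 to 2 leaving out 1 library. Same-numbered libraries deviated from their bone means with correlations of -0.168 to 0.150. With 3 femur, 3 frontal and 2 parietal libraries, such deviations cannot show whether the numbers pair the libraries. The block left the 10 genes' calls at 9 in calvaria against femur.

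Leaving out 1 library, ratio differences ran from 2.5 to 3.16 (Rspo2 to Rspo3), 2.84 to 3.23 (Lgr5 to Lgr4), -3.59 to -3.23 (Lgr6 to Lgr4), 1.08 to 1.35 (Lrp4 to Lrp6) and 1.02 to 1.30 (Lrp5 to Lrp6). Without a femur library the permutation test cannot pass after adjustment (0.0571). The call of Lrp5 to Lrp6 held in 1 of 8 such runs (highest adjusted p = 0.0686, permutation test), so it was also lost without some calvarial libraries. Each other ratio in this list kept its call in 5 of 8. The median of all genes shifted to 0.185 with upper-quartile scaling and 0.107 with library size only in calvaria against femur. Low counts limit Rspo2 in femur and Lgr5 throughout.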
